A study of Mus musculus with 8 samples.

Results

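Expression of 7 genes of cholesterol synthesis and its feedback control was followed across sorted mouse limb bud cells. They were 6 enzymes of the pathway (Hmgcs1, Idi1, Fdps, Fdft1, Sqle and Dhcr7) and the sterol sensor Insig1, and every probe set of the array with 1 of these names as its single gene symbol was taken. This gave 16 of the 45101 probe sets in the deposited table, 13 of which were bright enough to be tested. The embryos were heterozygous for Shhgfpcre, an allele in which Shh, the Sonic hedgehog gene, carries green fluorescent protein (GFP) and Cre. They were harvested at E10.5, by days after conception, and their limbs were dissociated and sorted by fluorescence. GFP-positive cells were the zone of polarizing activity (ZPA), the posterior mesenchyme that makes Shh, and GFP-negative cells were the rest of the limb (non-ZPA), which holds every other cell type of the bud. Both groups carried the same allele, so each comparison is between cells of Shh heterozygotes. The labels do not say how many embryos entered a sort, or whether samples came from separate litters, so the p-values speak for the variation among these arrays alone, which can include technical variation.

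Of 4 samples in each group, ZPA replicates 1 and 2 had values that differed by at most 0.5 intensity units at any probe set and were counted as 1 array, named ZPA 1+2. With this, 3 ZPA and 4 non-ZPA arrays of the Mouse430_2 type were compared, each from 50 ng of total RNA amplified in 2 cycles. Values are the authors' signal intensity on a linear scale, and fold changes are differences of log2(intensity + 16), ZPA minus non-ZPA, which understate the change of dim probe sets. Their errors are standard errors (SE) from limma, and adjusted p-values are Benjamini-Hochberg values over all 29525 probe sets tested, with 0.05 as the threshold. Per-array values are always given in the order ZPA 1+2, ZPA 3, ZPA 4, and then non-ZPA 1 to 4.

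Cells build cholesterol from acetyl-CoA through mevalonate, the isoprenoid diphosphates, squalene and lanosterol. When membranes hold little sterol, the transcription factor SREBP-2 is released from the endoplasmic reticulum and raises most genes of this pathway together, and Insig1 holds its precursor back when sterol is plentiful. Cholesterol has a direct link to the ZPA, because the Shh ligand is joined to a cholesterol molecule as it is cut to its signalling form, and the Hedgehog transducer Smo also binds sterols.

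Promoter windows of 250 bases before to 50 bases after the annotated start were found for 4 of the 7 genes in the RefSeq table of GRCm38.p6. The windows of Hmgcs1, Idi1 and Insig1 are shown as examples, and those of Dhcr7 are described below. Capitals mark the sterol regulatory element TCACNCCAC and the NF-Y box CCAAT, searched on both strands, so that ATTGG is the box read from the other strand. Hmgcs1 is at chr13:119690101-119690400, Idi1 at chr13:8885356-8885655 and Insig1 at chr5:28071162-28071461, all on the plus strand.
Hmgcs1: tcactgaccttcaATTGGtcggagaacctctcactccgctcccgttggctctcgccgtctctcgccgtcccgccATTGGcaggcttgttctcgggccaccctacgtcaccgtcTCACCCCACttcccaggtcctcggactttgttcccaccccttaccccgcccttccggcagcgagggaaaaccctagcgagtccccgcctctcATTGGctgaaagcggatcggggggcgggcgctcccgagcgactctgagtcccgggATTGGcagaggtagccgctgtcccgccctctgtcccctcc
Idi1: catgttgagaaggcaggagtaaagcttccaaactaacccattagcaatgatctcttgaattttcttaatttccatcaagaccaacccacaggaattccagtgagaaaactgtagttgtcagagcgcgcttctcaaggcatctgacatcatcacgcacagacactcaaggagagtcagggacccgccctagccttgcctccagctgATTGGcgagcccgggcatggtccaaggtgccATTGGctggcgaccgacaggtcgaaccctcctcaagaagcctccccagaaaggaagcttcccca
Insig1: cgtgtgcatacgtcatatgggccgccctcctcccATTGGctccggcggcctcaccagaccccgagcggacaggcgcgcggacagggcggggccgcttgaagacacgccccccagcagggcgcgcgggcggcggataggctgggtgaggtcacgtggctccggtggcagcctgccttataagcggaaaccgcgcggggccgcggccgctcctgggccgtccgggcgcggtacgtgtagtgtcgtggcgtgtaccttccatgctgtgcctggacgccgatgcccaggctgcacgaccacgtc
The sterol regulatory element was matched in the Hmgcs1 window alone among these genes, as TCACCCCAC beginning 137 bases before the start. Of all 32851 promoter windows in the table, 1.24% held this element and 37.4% held the NF-Y box. Hmgcs1 had 4 matches of the NF-Y box, Idi1 had 2 and Insig1 had 1. Of the annotated windows of Dhcr7, those at chr7:143822917-143823216 and chr7:143823149-143823448 had neither motif. The window at chr7:143829964-143830263 had 2 NF-Y matches and no sterol element. A match describes letters and is not a measured binding site.

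None of the 13 tested probe sets passed the test in either direction by limma, and 4 had an unadjusted p under 0.05, of which 3 were higher and 1 was lower in the ZPA. The brightest probe set of 6 of the 7 genes had a positive log2 fold change, with a median of 0.59 against -0.004 over the brightest probe set of all 13884 tested genes, and 5 of 7 were positive when each array was centred on its median, which turned Insig1. Over all 13 probe sets 8 values were positive and 5 negative, with a median of 0.21 against 0.02 over all tested probe sets. With median centring the split was 6 to 7, with a median of -0.04 against -0.23 over all tested probe sets. Groups did not overlap for 4 probe sets, with ZPA above for 3 and below for 1. The members' adjusted p-values ran from 0.121 to 0.924.

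These counts can be read against the whole array. Of all tested probe sets, 0.349% passed as higher and 1.28% as lower in ZPA cells, and 17.4% had an unadjusted p under 0.05. Groups did not overlap with ZPA above for 7.79% and with ZPA below for 8.73%. With 1 probe set per gene, 0.317% of genes passed as higher and 1.74% as lower.

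The arrays also differed in measures other than these genes. The 18 spike-in probe sets had a mean level, relative to the non-ZPA mean, of 9.72 on ZPA 1+2, 1.44 on ZPA 3 and 5.86 on ZPA 4, and between 0.808 and 1.16 on each non-ZPA array. The group means of log2 level differed by 2.12 (p = 0.0286 by an exact 2-sided permutation test, which cannot go lower with 3 and 4 arrays). The top of the intensity range also differed. The intensity at the 99.9 percentile was 77310 on ZPA 1+2, 34660.3 on ZPA 3 and 80776 on ZPA 4, against 24888 to 30802 on the non-ZPA arrays. Signal near the 3 prime end of Actb over that near its 5 prime end, which climbs as RNA is shortened, came to 21.6 on ZPA 4 and to between 2.04 and 5.37 elsewhere. Limb mesenchyme markers were measured on all arrays, with 8 of 8 tested, 0 called and a summed intensity of 30607 to 31878 in ZPA and 18923 to 29305 in non-ZPA. Those of muscle precursors had a summed intensity of 181 to 381 in ZPA and 1179 to 3094 in non-ZPA, and 3 of 6 passed as lower (Met, Myf5 and Pax3). Of 12 surface ectoderm markers 2 passed as lower (Epcam and Dsp), with 10 negative and 2 positive log2 fold changes. Their summed intensity overlapped, at 7386 to 10118 in ZPA and 5236 to 12789 in non-ZPA. The summed level of leukocyte markers was 13508 on ZPA 4 against 750.4 to 1700 on the other arrays. Of the other marker lists, primitive erythroid genes had 2 of 9 lower, and endothelium, leukocytes and neural crest and nerve had 0 called of 6, 7 and 4. No marker was listed at 0. The part of these differences in the members' values was not tested, and in bulk samples fewer cells of a type and less RNA per cell cannot be told apart.

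**Figure D1:**
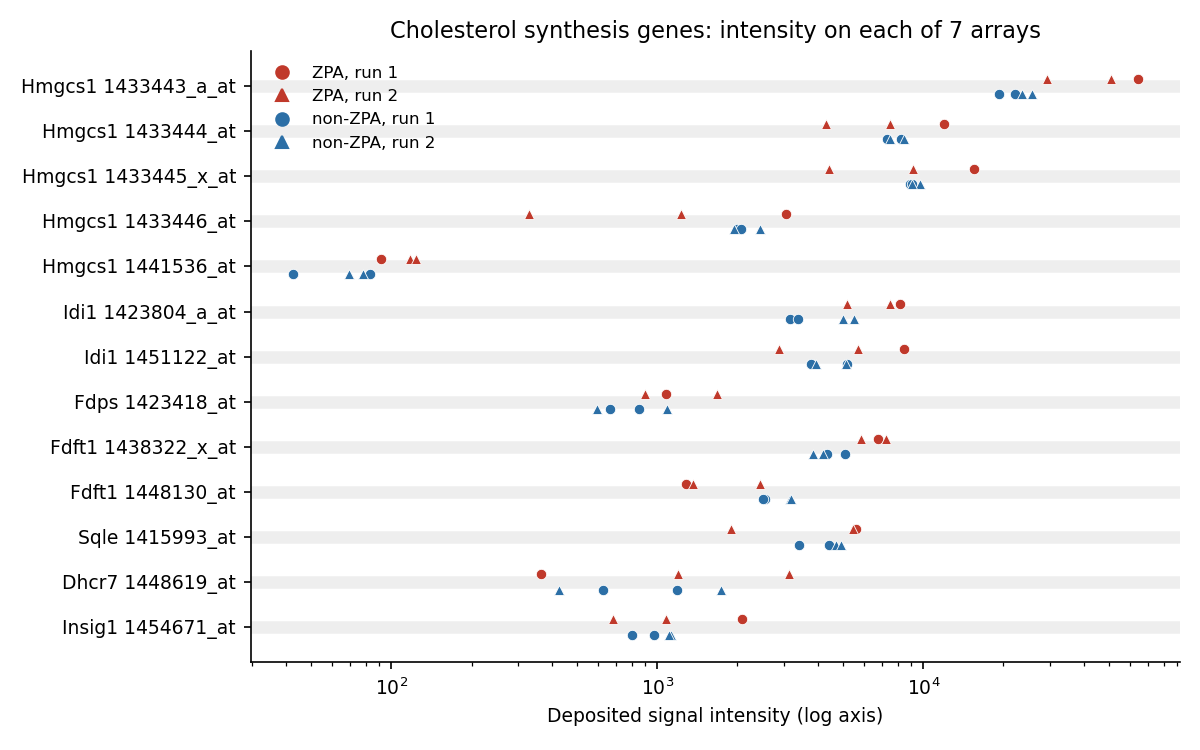
Deposited signal intensity (log axis) of the 13 tested probe sets on each of 7 arrays, with 3 ZPA arrays in red above and 4 non-ZPA arrays in blue below in each row; circles are run 1 and triangles run 2. The ZPA points of Hmgcs1 1433443_a_at (29111 to 63828) lie to the right of all non-ZPA points (19303 to 25625), those of Fdft1 1448130_at lie to the left, and most other rows overlap.

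Hmgcs1, which joins acetyl-CoA units into HMG-CoA at the entry to the mevalonate pathway, had the largest positive log2 fold change of the members. Its probe set 1433443_a_at read 63828, 29111 and 50814 in ZPA and 22173, 19303, 23533 and 25625 in non-ZPA. All 3 ZPA arrays lay above all 4 non-ZPA arrays. The mean was 47918 ± 17539 (SD, n = 3) against 22659 ± 2649 (SD, n = 4), a log2 fold change of 1.01 ± 0.32 with a 95% interval, not adjusted for the number of tests, of 0.34 to 1.69 and an adjusted p of 0.121 by limma.

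This value depended on how the top of the range was scaled. Within its own array the probe set ranked 77, 110 and 132 from the brightest in ZPA and 122, 146, 104 and 97 in non-ZPA, so that the ranks of both groups overlapped. After quantile normalization, which gives every array the same distribution, its log2 fold change was 0.06 (adjusted p = 0.906). Without ZPA 1+2 it was 0.77 (adjusted p = 0.0825), and without ZPA 3 it passed at 1.34 (adjusted p = 0.0278), both by limma. Of all tested probe sets, 0.738% passed as higher without ZPA 3, against 0.349% with all arrays.

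Of the other 4 Hmgcs1 probe sets, 3 had overlapping groups and negative values, and the dim 1441536_at lay above in ZPA. Probe set 1433444_at read 11945, 7457 and 4301 in ZPA and 7327, 8239.5, 8436 and 7485 in non-ZPA (log2 fold change -0.11 ± 0.34, adjusted p = 0.905 by limma). Its ZPA arrays lay on both sides of the non-ZPA arrays, with ZPA 1+2 highest and ZPA 4 lowest of all 7. The same order was seen with 1433445_x_at, at 15502, 9118 and 4414 in ZPA and 8898 to 9674 in non-ZPA (-0.10 ± 0.37, adjusted p = 0.924 by limma). Its suffix marks a set in which some probes can match other sequences.

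Probe set 1433446_at split the ZPA arrays further. It read 3039, 1226 and 329 in ZPA and 1992, 2061, 1944 and 2422 in non-ZPA. ZPA 1+2 was above all non-ZPA arrays and the other ZPA arrays were below them, and the log2 fold change was -0.95 ± 0.54 (95% interval -2.12 to 0.22, adjusted p = 0.397 by limma). Without ZPA 1+2 it passed as lower at -1.69 (adjusted p = 0.0254), and without ZPA 4 its value was -0.12 (adjusted p = 0.904), both by limma. Of all tested probe sets, 5.29% passed as lower without ZPA 1+2, against 1.28% with all arrays. The dim probe set 1441536_at read 91.0, 118 and 124 in ZPA and 42.6, 83.0, 78.2 and 69.2 in non-ZPA, above the filter level on 5 of 7 arrays. Its groups did not overlap, but the log2 fold change of 0.61 ± 0.47 did not pass (adjusted p = 0.548 by limma).

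Idi1, which converts isopentenyl diphosphate to dimethylallyl diphosphate, was measured by a pair of probe sets. The first, 1423804_a_at, read 8161, 7509.5 and 5160.1 in ZPA and 3138, 3369, 5507 and 4971 in non-ZPA. ZPA 1+2 and ZPA 3 lay above all non-ZPA arrays, and ZPA 4 lay among them. The log2 fold change was 0.72 ± 0.32 with a 95% interval of 0.04 to 1.41 and an adjusted p of 0.262 by limma. The second, 1451122_at, read 8441, 5679 and 2877 in ZPA and 5179, 3763, 3943 and 5137 in non-ZPA. Here ZPA 4 was the lowest of all arrays and the other ZPA arrays the highest, and the difference was 0.21 ± 0.36 on the log2 scale (adjusted p = 0.815 by limma).

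Fdps makes farnesyl diphosphate, which feeds both sterols and protein prenylation. Its probe set 1423418_at read 1077, 1682 and 902 in ZPA and 664, 849, 594 and 1086 in non-ZPA. The groups overlapped only through non-ZPA 4, and the log2 fold change was 0.59 ± 0.35 (95% interval -0.16 to 1.34, adjusted p = 0.412 by limma). A second Fdps probe set, 1438150_at, was not tested, because it was above the filter level only on ZPA 1+2. It read 204 there and 2.50 to 48.6 on the other 6 arrays.

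Fdft1, squalene synthase, joins farnesyl units at the step committed to sterols, and its probe sets pointed in opposite directions. Probe set 1438322_x_at read 6728, 5826 and 7209.6 in ZPA and 5087, 4351, 4188 and 3829 in non-ZPA, with all ZPA arrays above. Its log2 fold change was 0.59 ± 0.27 (95% interval 0.003 to 1.19, adjusted p = 0.284 by limma). Probe set 1448130_at read 1282, 2424 and 1358 in ZPA and 2538, 2488, 3145 and 3179.8 in non-ZPA, with all ZPA arrays below. Its log2 fold change was -0.80 ± 0.32 (95% interval -1.48 to -0.11, adjusted p = 0.215 by limma). The first of these carries the suffix of sets whose probes can match other sequences. The remaining Fdft1 probe sets, 1438918_at and 1438919_x_at, stayed below the filter level on all 7 arrays, at 10.9 to 45.4, and were not tested.

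Sqle, the squalene epoxidase and an oxygen-dependent control point of the pathway, had nearly equal group means. It read 5590.1, 5445 and 1889 in ZPA and 3412, 4420.2, 4706 and 4911 in non-ZPA. ZPA 4 was the lowest of all arrays and the other ZPA arrays were the highest, and the log2 fold change was -0.16 ± 0.38 (95% interval -0.98 to 0.66, adjusted p = 0.874 by limma). Dhcr7, which reduces 7-dehydrocholesterol in the last step to cholesterol, had the largest SE of the members. It read 364, 1195 and 3133 in ZPA and 1185, 626, 1739 and 425 in non-ZPA. ZPA 1+2 was its lowest array and ZPA 4 its highest, the opposite of Sqle, and the log2 fold change was 0.37 ± 0.62 (95% interval -0.98 to 1.71, adjusted p = 0.817 by limma). Its sign turned on single arrays, at 1.15 without ZPA 1+2 and -0.37 without ZPA 4.

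Insig1, the endoplasmic reticulum protein that retains the SREBP precursor, is itself raised by SREBP. It read 2080.2, 679 and 1078 in ZPA and 801, 970.3, 1126 and 1108 in non-ZPA. ZPA 1+2 was highest and ZPA 3 lowest of all arrays, and the log2 fold change was 0.21 ± 0.38 (95% interval -0.61 to 1.03, adjusted p = 0.826 by limma). The intervals of Sqle, Dhcr7 and Insig1 include changes in either direction, so that a missed threshold does not show equal levels.

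**Figure D2:**
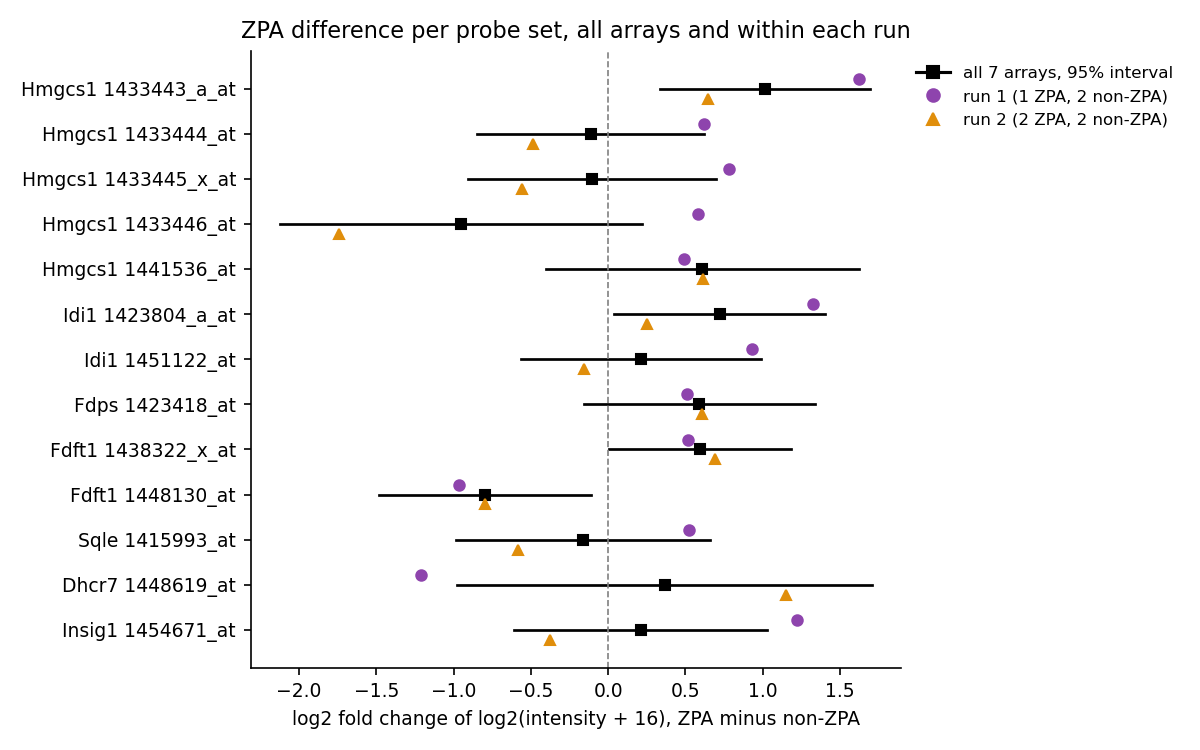
Log2 fold change (ZPA minus non-ZPA) of each tested probe set, with black squares and 95% intervals for all 7 arrays, purple circles for run 1 and orange triangles for run 2. In 6 rows the circle lies above 0 and the triangle below it, for Dhcr7 the order is turned, and Fdft1 1448130_at is below 0 in both runs.

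By their title numbers the samples formed 2 runs that matched the recorded scan days, and run 1 held ZPA 1+2 with non-ZPA 1 and 2. ZPA 1+2 was the highest of 7 arrays for 8 of the 13 probe sets, and ZPA 4 was the lowest for 5 and the highest for 3. In run 1 the log2 fold change was 1.62 for Hmgcs1 1433443_a_at, 1.32 for Idi1 1423804_a_at and 1.22 for Insig1, against 0.65, 0.25 and -0.38 in run 2. Fdps and Fdft1 1438322_x_at had like values in both runs, at 0.51 and 0.61 for Fdps 1423418_at and at 0.51 and 0.69 for Fdft1. Dhcr7 had -1.21 in run 1 and 1.15 in run 2. Both runs were positive for 5 probe sets, both negative for 1, and of opposite sign for the others.

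The difference between the runs was tested in limma as the interaction of group and run. It passed for 0 of the 13 member probe sets and for 0.969% of all tested probe sets, and 6 of the 13 had an unadjusted p under 0.05 (5261 of 29525 over the whole array). The smallest adjusted p among the members was 0.164, for Insig1. Run 1 has a single ZPA array, and its spread was taken from the other arrays of the design. Without ZPA 3 or ZPA 4 each run held a single ZPA array, so the calls of this test are not given for those settings. When run was a block in the comparison of ZPA and non-ZPA, Hmgcs1 1433443_a_at stood at 1.04 on the log2 scale (adjusted p = 0.104 by limma), and none of the 13 probe sets passed.

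Because probe sets of the same gene disagreed, their ratio on each array was compared between the groups. This comparison was chosen after the values had been seen. The log2 ratio of Hmgcs1 1433443_a_at over 1433446_at was 4.39, 4.55 and 7.20 in ZPA and 3.47, 3.22, 3.59 and 3.39 in non-ZPA. The Fdft1 ratio of 1438322_x_at over 1448130_at was 2.38, 1.26 and 2.40 in ZPA and 0.998, 0.80, 0.41 and 0.27 in non-ZPA. In both cases all ZPA arrays were above all non-ZPA arrays. The difference of the means was 1.96 for Hmgcs1 and 1.39 for Fdft1, given as a description with no test. For Fdft1 the separation follows from its probe sets lying on opposite sides in every array. Of 12 pairs compared, 5 did not overlap between the groups, 4 of them of Hmgcs1 and sharing probe sets with each other, against 17.2% of all 17983 pairs of tested probe sets with the same gene symbol.

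The Idi1 ratio of 1423804_a_at over 1451122_at overlapped between the groups, with a difference of 0.51. Without ZPA 4, whose Actb ratio was the highest, the Hmgcs1 difference was 1.05 and that of Fdft1 was 1.199. After quantile normalization they were 0.97 and 1.25. The Hmgcs1 differences of 1433443_a_at over 1433445_x_at and over 1433444_at shrank more, from 1.12 to 0.39 and from 1.13 to 0.35. Which stretch of each transcript the probe sets cover was not analysed here.

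**Figure D3:**
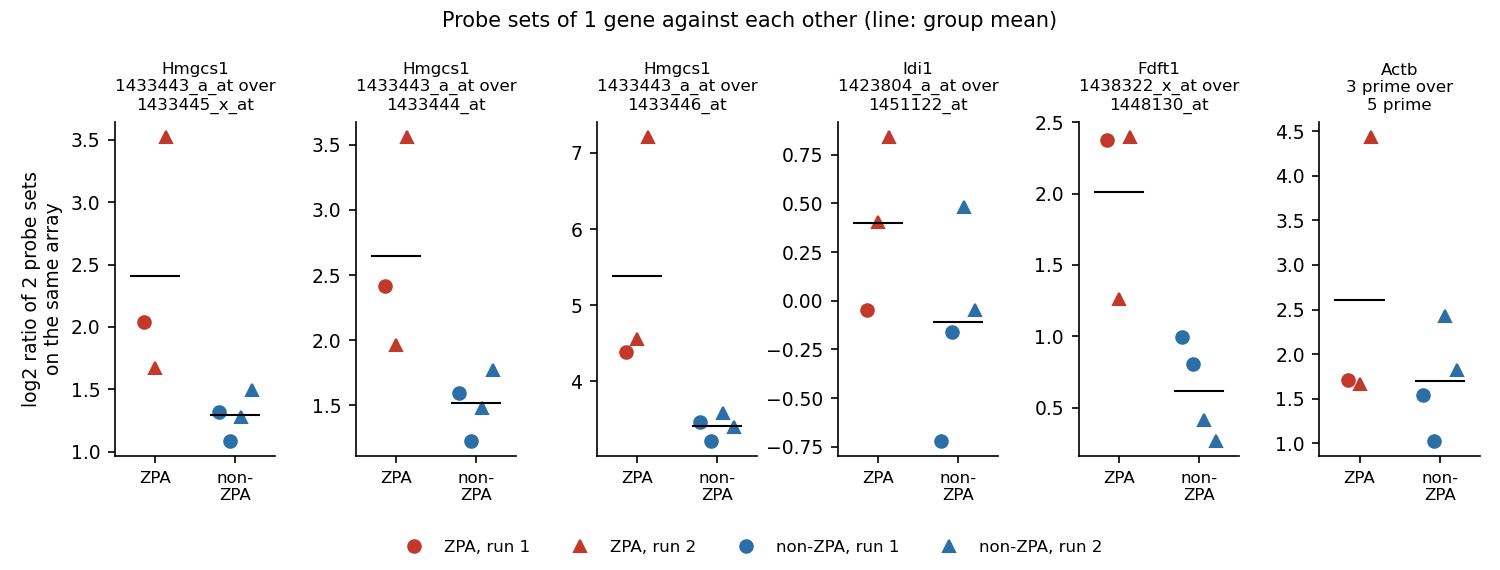
Log2 ratio of 2 probe sets of the same gene on the same array, for Hmgcs1, Idi1 and Fdft1, with Actb (3 prime over 5 prime) in the last panel; the lines are group means, circles run 1 and triangles run 2. The ZPA points lie above all non-ZPA points in the 3 Hmgcs1 panels and in the Fdft1 panel, and ZPA 4 is the highest point for Hmgcs1 (7.20 over 1433446_at) and for Actb (4.43).

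The other enzymes of the pathway did not pass either. Of 14 listed, 11 had a named probe set, and by the brightest probe set of each 0 passed in either direction by limma, 3 had an unadjusted p under 0.05, and the median log2 fold change was -0.18 (0.22 in run 1 alone). The 3 were lower in ZPA cells on every array, with groups that did not overlap. Ebp, the sterol isomerase, read 386, 874 and 534 in ZPA and 1254, 1410.4, 1229 and 1225 in non-ZPA (log2 fold change -1.15 ± 0.34, adjusted p = 0.103 by limma). For Pmvk, phosphomevalonate kinase, the value was -0.93 (adjusted p = 0.130), and for Tm7sf2, a sterol reductase, it was -0.88 (adjusted p = 0.169), both by limma.

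Cyp51, the lanosterol demethylase, stood apart on 1 array. Its probe set 1450646_at read 12697, 2106 and 1561 in ZPA and 2579.5, 2840.5, 3273 and 3077 in non-ZPA. ZPA 1+2 was far above every other array and the other ZPA arrays were below all non-ZPA arrays. The remaining enzymes had log2 fold changes of 0.65 for Mvk, 0.60 for Nsdhl, 0.22 for Msmo1, -0.15 for Sc5d, -0.18 for Lss, -0.30 for Mvd and -0.31 for Hsd17b7. Over the 17 measured enzymes in pathway order, members included, 9 values were positive and 8 negative. With median centring 7 were positive and 10 negative, where the median of all tested probe sets was -0.23. Other probe sets of an enzyme could differ from its brightest and from each other. For Hsd17b7, 1417871_at stood at 1.36 and 1448865_at at -0.89 (adjusted p = 0.126 and 0.267 by limma). For Lss, 1426913_at was 1.06 and 1420014_at 0.41, and for Mvd, 1417303_at was 0.53 (adjusted p = 0.201, 0.782 and 0.430 by limma). These had the opposite sign to the brightest probe set, and for 1426913_at and 1417303_at all ZPA arrays lay above all non-ZPA arrays. Dimmer tested probe sets of Mvk, Cyp51 and Sc5d had the sign of the brightest.

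**Figure D4:**
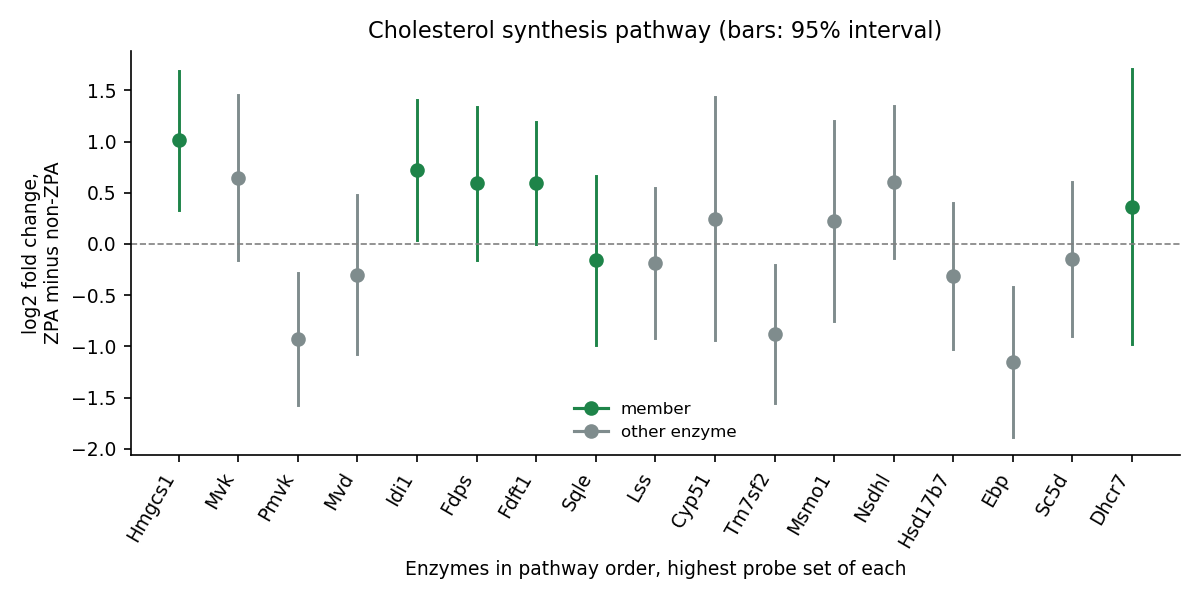
Log2 fold change (ZPA minus non-ZPA) with its 95% interval for 17 enzymes of cholesterol synthesis in pathway order, using the brightest probe set of each; members are green and other enzymes grey. Values run from -1.15 (Ebp) to 1.01 (Hmgcs1), with both signs in the early and in the late steps. With median centring 7 of the 17 values were positive, where the median of all tested probe sets was -0.23.

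None of the 6 regulators of SREBP passed by limma, with 1 at an unadjusted p under 0.05 and a median log2 fold change of -0.28. Srebf2, the gene of SREBP-2, was that 1, and its brightest probe set 1452174_at read 236, 366 and 611 in ZPA and 1023, 815, 1508 and 746 in non-ZPA. All ZPA arrays lay below all non-ZPA arrays (log2 fold change -1.35 ± 0.39, adjusted p = 0.0990 by limma). A dimmer Srebf2 probe set, 1426744_at, showed 0.11 on the same scale (adjusted p = 0.927 by limma). Insig2, the second Insig gene, read 2255, 892 and 379 in ZPA and 1129 to 1335 in non-ZPA, again with ZPA 1+2 highest and ZPA 4 lowest. Its log2 fold change was -0.37, and those of Scap, the SREBP escort, and Srebf1 were -0.20 and -0.01.

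Among genes that attach lipids to Shh, release it or receive it, 1 of 7 tested rose, which was Shh itself (log2 fold change 4.20, adjusted p = 0.00209 by limma). Its reporter defined the sort. Hhat, which palmitoylates Shh, read 527, 321 and 240.1 in ZPA and 165, 238, 215 and 210.0 in non-ZPA, with no overlap, at 0.70 on the log2 scale (adjusted p = 0.367 by limma). The sterol-sensing receptor Ptch1 showed 0.94 (adjusted p = 0.277 by limma). Scube1, which helps to release lipid-bearing Shh, had one of 0.91 and Scube3 one of -1.50 (adjusted p = 0.201 and 0.134 by limma), and Scube3 passed as lower when run was a block (adjusted p = 0.0279).

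The neighbouring lipid lists gave no call by limma either. Cholesterol uptake, transport and efflux genes had 0 of 8 called, 1 at an unadjusted p under 0.05 and a median log2 fold change of -0.20, which was 0.11 in run 2 alone and 0.09 without ZPA 1+2. The isoprenoid branch, which draws on Fdps, had 0 of 6 called, 2 at that level and a median of 0.53. Fatty acid synthesis had 0 of 9 called, 4 at that level and a median of 0.16, which was -0.18 in run 1 alone, -0.19 after quantile normalization, -0.09 with median centring and -0.017 without ZPA 4.

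The members did not move as 1 block across the arrays. Against the mean profile of the other members over the 7 arrays, Pearson's r was 0.86 for Idi1, 0.80 for Hmgcs1, 0.58 for Fdft1, 0.37 for Fdps, 0.28 for Insig1, -0.13 for Sqle and -0.33 for Dhcr7, using the brightest probe set of each. These correlations describe 7 arrays that share 2 groups and 2 runs. The genes whose levels were most like the mean profile of all members, among 5547 candidates, were Ndufb3, Shmt1, Mrpl32, Timm10b and Nol10, with r from 0.969 to 0.989. Of the 11 other measured enzymes 10 were among the candidates, and Cyp51 came highest of them at place 1029 with r = 0.467. Ebp ran opposite to the mean profile of all members with r = -0.907. That profile was positive on every ZPA array and negative on every non-ZPA array, so this r also holds the group difference of Ebp given above.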

How the data were processed

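The deposited table held the authors' intensity for 45101 probe sets on a linear scale; GCOS 1.3 is named in the submitters' processing notes. How the software summarised probes, and any detection calls, are not given in the sources used here. All arrays had trimmed means near 500 and were not scaled again. Precision is limited by the number of arrays. The members and gene lists were chosen with earlier results of these data known.

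Analysis used log2(intensity + 16). Probe sets had to exceed the 40th percentile of the array they were on (50.8 to 91.9 in intensity) on 3 or more of the 7 arrays, and 64 control probe sets were left out. A single symbol was available in the platform annotation for 34945 of the remaining 45037, several for 932, and 9160 were unnamed here. The GRCm38.p6 table held 34754 of the identifiers, with 0 symbols changed. limma 3.58.1 in R 4.3.3 was fitted over all tested probe sets (lmFit, eBayes with an intensity trend, 2-sided) and was tested on simulated data. In lists, a gene was represented by its brightest probe set. All members, other pathway enzymes, SREBP regulators and Shh lipid genes could be named, and, from other lists, up to 4 called members and the 2 brightest. Alternatives were run or replicate number as a block, each run alone, pseudocounts 1 and 64, quantile normalization, median centring, filters, the variance model, ZPA replicates 1 and 2 counted separately, and leaving out each array. Within-gene ratios were chosen after seeing the data.

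Arrays of the same replicate number did not deviate together, with correlations between -0.0162 and 0.0787, so the numbers were not used as pairs.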

Additional observations from a re-analysis of the deposited data

Results flagged for a closer look

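The effect of the sort on Cyp51 1450646_at differed between the runs, with a log2 fold change of 2.22 in run 1 and -0.80 in run 2, a difference of -3.025 (adjusted p = 0.0251 by limma's interaction term). It rests on the intensity of 12697 on ZPA 1+2. The adjusted p was 0.0943 with median centring and 0.179 without the intensity trend, both by limma. Without each non-ZPA array in turn it ran from 0.0966 to 0.204. Without ZPA 3 or ZPA 4 each run held a single ZPA array, and the difference was -3.24 or -2.81. The other Cyp51 probe sets did not share it, with differences of 0.15 for 1422533_at and -0.63 for 1422534_at.

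In the non-ZPA group, 1 array stood apart from the other 3 for Msmo1 1423078_a_at, where the gap below non-ZPA 4 was 0.843 of the group's range, and for Ebp 1416667_at, where the gap below non-ZPA 2 was 0.832 of it. Both pass Dixon's critical value for 4 samples at the 95% level, and chance passes it in about 1 of 20 groups. Here 37 groups were looked at.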

How the results depend on the processing

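The 13 member probe sets were refitted under up to 21 alternatives each. Of 266 values, 240 kept their direction and their side of the threshold, 9 passed it, 18 turned sign and 1 of these did both (Hmgcs1 1433445_x_at in run 1 alone), and in each case the cause was not tested. Median centring moved the median log2 fold change of all tested probe sets from 0.02 to -0.23, and members are to be read against that shift. It turned Idi1 1451122_at to -0.040 and Insig1 to -0.041. In run 1 alone, 5 member probe sets were higher and 1 lower, against 9.08% higher and 11.2% lower of all tested, where the single ZPA array was given the spread of the 2 non-ZPA arrays. Values that turned there were 0.62 for Hmgcs1 1433444_at, 0.79 for 1433445_x_at, 0.58 for 1433446_at, 0.52 for Sqle and -1.21 for Dhcr7. In run 2 alone Idi1 1451122_at was -0.15 and Insig1 -0.38. Counted as separate samples, ZPA replicates 1 and 2 gave 1 higher member probe set, Hmgcs1 1433443_a_at, where 1.5% of all tested were higher. This setting enters the same values as 2 samples. It turned Hmgcs1 1433444_at to 0.066, 1433445_x_at to 0.11 and Dhcr7 to -0.028.

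Without ZPA 4, Hmgcs1 1433444_at was 0.26, 1433445_x_at 0.37, Sqle 0.35 and Dhcr7 -0.37. Without ZPA 1+2, Idi1 1451122_at was -0.14 and Insig1 -0.21. Sqle was -0.43 and Dhcr7 1.15 without ZPA 1+2, and without any other single array they ran from -0.41 to 0.35 and from -0.37 to 0.70. Leaving out an array gave 0 to 1 higher and 0 to 1 lower member probe sets. The 1 higher came without ZPA 3, where 0.738% of all tested probe sets were higher. The 1 lower came without ZPA 1+2, where 5.29% of all tested were lower.

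Over the whole array 481 probe sets passed. The count was 813 with the run as a block, 5985 in run 1 alone, 98 without the intensity trend and 1294 with ZPA replicates 1 and 2 counted separately. With the replicate block it was 460 with the shared array as replicate 1 and 781 with it as replicate 2, and 0 members were called in both. Leaving out 1 array gave 125 (non-ZPA 2) to 2586 (ZPA 1+2), with 211, 130 and 166 without non-ZPA 1, 3 and 4 and 616 without ZPA 3. The difference between runs passed for 286 probe sets, for 116 with no filter and for 0 with median centring or without the trend, and for 0 to 4410 without 1 array, the highest without ZPA 3 and 1622 without ZPA 4. The spike-in difference ran from 1.54 (without ZPA 1+2) or 1.90 (without ZPA 4) to 2.92 without 1 array, with p from 0.0667 to 0.1 (exact permutation test), the smallest that the smaller groups allow. The Actb difference was 0.90 and ran from -0.0117 without ZPA 4 to 1.37 without ZPA 3, and that of Gapdh was -0.60 and ran from -1.39 without ZPA 4 to 0.0586 without ZPA 1+2. The table carries no background bound, so dim values are limited by an unknown background.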
